A study of Homo sapiens with 6 samples.

Results

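The genes described here encode SR proteins, SR-related and nuclear speckle proteins, and the kinases that phosphorylate them. They were chosen by name, as 35 listed symbols, and all 35 were present once each among the 58735 genes of the count table. The data are RNA-seq counts of 6 libraries. All come from the human line RPE-1, which was established from retinal pigment epithelium. The cells of every library carried GFP-tagged CETN2, which marks centrioles, and PLK4 under a doxycycline-inducible promoter that the rtTA activator drives. All 6 were induced with doxycycline at 1 µg/mL. The groups were siControl (scramble siRNA, n = 3) and siSON (siRNA against SON, n = 3), so the comparison is of SON depletion on a background of induced PLK4, with no uninduced cells among the libraries analysed. No label states that replicates came from separate cultures, so p-values measure the spread between these libraries, which may be technical.

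SR proteins carry RNA recognition motifs and a tail rich in arginine-serine dipeptides, the RS domain. They bind exonic enhancers and help to recruit the spliceosome to nearby splice sites. SRPK kinases phosphorylate RS domains in the cytoplasm and promote nuclear import, while CLK and DYRK kinases act in the nucleus and release SR proteins from speckles. SON and SRRM2 are large RS-rich proteins at the core of nuclear speckles. Many SR genes control their own mRNA through a poison exon, a cassette exon with a stop codon whose inclusion sends the transcript to nonsense-mediated decay (NMD).

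Such exons are part of the reference models of these genes, and gene-level counts add reads from forms with and without them. In GENCODE release 29 (GRCh38), 29 of the 34 members with counts (85.3%) had at least 1 transcript annotated as an NMD target, beside 5558 of 13008 protein-coding genes tested (42.7%). Transcripts annotated as retaining an intron were present for 29 of the 34 (85.3%), beside 57.1% of coding genes tested. The members had a median of 15 annotated transcripts, beside 8 for coding genes tested, and the shares were not adjusted for that number. A cassette exon that holds the stop codon of an NMD transcript and overlaps no exon of the principal coding transcripts was found for 20 of the 35 genes, 30 exons in all. For 4 of them the exon is printed from its first base to its stop codon, which is in capitals. This shows where the reading frame of a form annotated as an NMD target ends. The sequences are from the GENCODE transcript file, 5′ to 3′ on the gene's strand.
SRSF3 (SRSF3-203, exon 4, chr6:36599821-36599854, plus strand): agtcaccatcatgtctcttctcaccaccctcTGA
SRSF4 (SRSF4-204, exon 2, chr1:29160018-29160058, minus strand): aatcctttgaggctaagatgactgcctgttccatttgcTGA
SRSF6 (SRSF6-202, exon 3, chr20:43459153-43459304, plus strand): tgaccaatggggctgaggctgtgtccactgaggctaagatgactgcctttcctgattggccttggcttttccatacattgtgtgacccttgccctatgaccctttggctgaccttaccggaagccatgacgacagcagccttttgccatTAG
TRA2B (TRA2B-206, exon 2, chr3:185931772-185931852, minus strand): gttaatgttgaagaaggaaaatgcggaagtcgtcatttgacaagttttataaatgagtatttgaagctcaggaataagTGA
The whole exons have 456, 195, 268 and 276 bases in that order. The SRSF4 and SRSF6 stretches share the 20-base run tgaggctaagatgactgcct, the longest shared by the stretches of any 2 different genes in this set of exons. How often any of these exons was included was not measured, since the table holds 1 count per gene.

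The libraries held between 54572365 and 69764836 counts each. Levels are given as CPM, a library's counts scaled to a common total. A count of 0 allows up to 3 counts, or 0.0430 to 0.0550 CPM on unscaled library totals, and this limit covers counting error only. Among markers of the labelled cell type, KRT8, KRT18 and VIM were at 208 to 7819 CPM and MITF and BEST1 at 7.71 to 32.0 CPM, whereas the retinal genes RPE65, RLBP1 and TYR were at 0 to 0.258 CPM. KRT7 was at 11.6 to 25.5 CPM and PMEL at 0.172 to 2.11 CPM, while the epithelial markers CDH1 and EPCAM were near absent, at 0 to 0.158 and 0 to 0.161 CPM. KRT18 was at 208 to 233 CPM in siControl and 610.0 to 621 CPM in siSON. PMEL was at 2.03 to 2.11 CPM in siControl and 0.172 to 0.252 CPM in siSON, and KRT7 at 19.8 to 25.5 and 11.6 to 15.1 CPM. The groups did not overlap for KRT8, VIM, MITF and BEST1 either. The part of these markers in the results was not tested. Blood, endothelial and neuronal markers reached at most 1.98 CPM. SON itself, the siRNA target, had 295, 313 and 284 CPM in the siControl libraries and 67.9, 69.9 and 65.0 CPM in the siSON libraries. The groups did not overlap, with a log2 fold change of -2.14 and an SE of 0.06 (adjusted p 6.78e-10 by edgeR). CPM values are shares of a library, so that fewer cells and less RNA per cell cannot be told apart.

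Per kilobase of merged exon, the members spanned a wide range in siControl cells. SRSF9 was highest at 65.4 ± 1.11 CPM per kb (SD, n = 3), followed by SRSF2 (51.4 ± 4.25), SRSF6 (50.8 ± 0.221), SRRM2 (46.8 ± 4.10) and PNN (45.1 ± 6.17), of which the last 4 lay within their combined spread. CLK4 (1.43 ± 0.241), DYRK1A (1.67 ± 0.118) and CLK3 (2.66 ± 0.159) were lowest among those with counts. Merged exon length counts every annotated exon, rare ones included, so that genes with long rare exons appear lower on this scale. SRSF12, the paralog of SRSF10, had 0 counts in all 6 libraries and was not tested. The remaining 34 passed the filter on low counts.

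**Figure D1:**
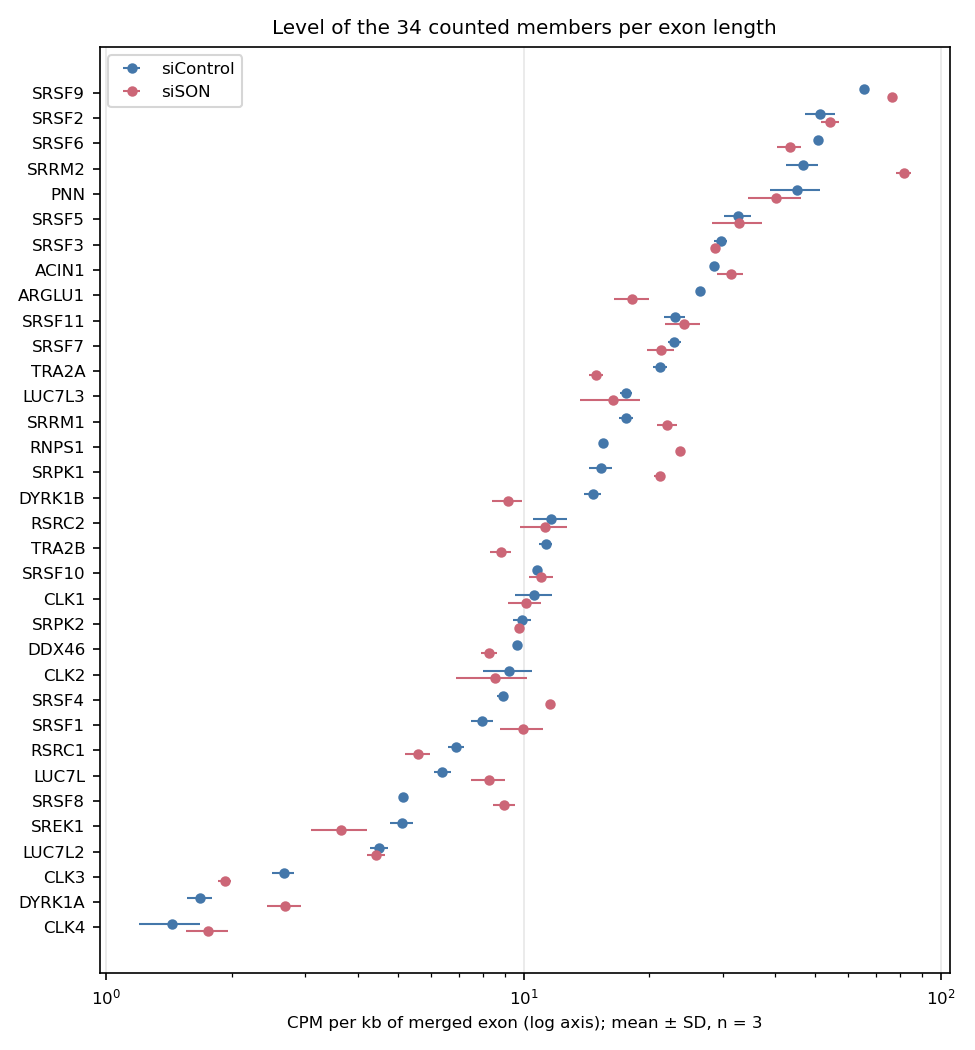
Mean level per kilobase of merged exon (log axis) for the 34 members with counts, in siControl and siSON cells; bars are SD over 3 libraries. SRSF9 is highest in siControl at 65.4 CPM per kb and CLK4 lowest at 1.43.

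After SON depletion most of these genes moved little. By the quasi-likelihood test of edgeR at an adjusted p threshold of 0.05, 19 of 34 members tested (55.9%) were called changed, beside 71.7% of all 16591 genes tested. The split was 10 higher (29.4%, beside 35.2% of all genes) and 9 lower (26.5%, beside 36.5%). With scaling by library size alone 24 members were called (70.6%, beside 71.1% of all genes), 6 higher (17.6%, beside 26.8%) and 18 lower (52.9%, beside 44.3%). With cyclic loess normalization 30 were called (88.2%, beside 70.4%), 9 higher (26.5%, beside 36.4%) and 21 lower (61.8%, beside 34% of all genes). No member changed 2-fold or more, whereas 29.3% of all genes did. The largest absolute log2 fold change was 0.81, and 39.2% of all genes tested exceeded it. The members' median absolute log2 fold change was 0.26, beside 0.63 over all genes. Among the 8600 genes counted at least as deeply as the least counted member the median was 0.52, with 82.0% called and 19.0% changed at least 2-fold. The groups did not overlap for 20 of the 34 members (58.8%), beside 75.1% of all genes.

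**Figure D2:**
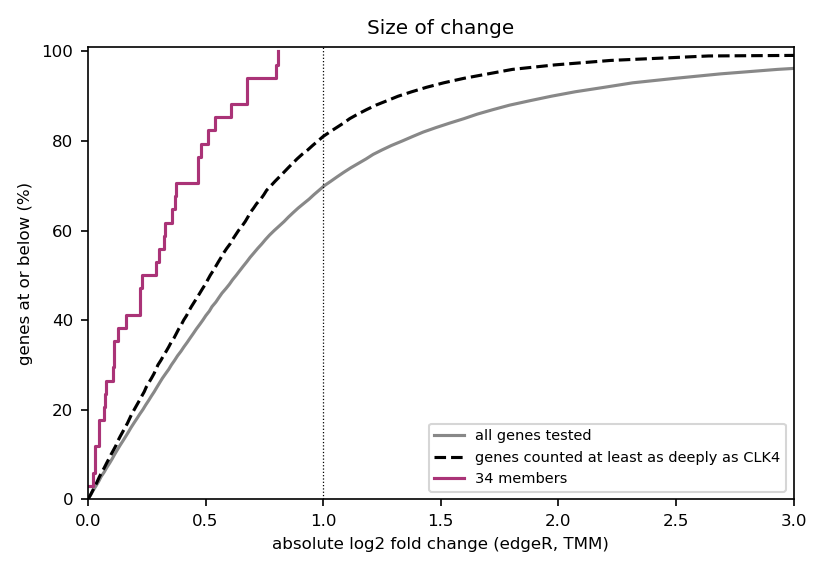
Cumulative share of genes (%) by absolute log2 fold change for the 34 members, all genes tested, and the genes counted at least as deeply as CLK4. The members end at 0.81, left of the dotted line at a 2-fold change, which 29.3% of all genes passed.

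The sign of SRSF2, SRSF5, SRSF9, SRSF10, SRSF11 and ACIN1 depended on scaling. Library size alone moved the median log2 fold change of all genes from -0.027 to -0.22 and that of the members from -0.026 to -0.22. Cyclic loess, which scales by expression level, moved the members to -0.22 and all genes to 0.038. Across every alternative scaling, test, filter and omitted library, 6 of the 10 higher calls and all 9 lower calls were kept. The 6 were SRSF4, SRSF8, SRRM2, RNPS1, SRPK1 and DYRK1A, and the 9 were SRSF6, TRA2A, TRA2B, SREK1, RSRC1, ARGLU1, CLK3, DYRK1B and DDX46.

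**Figure D3:**
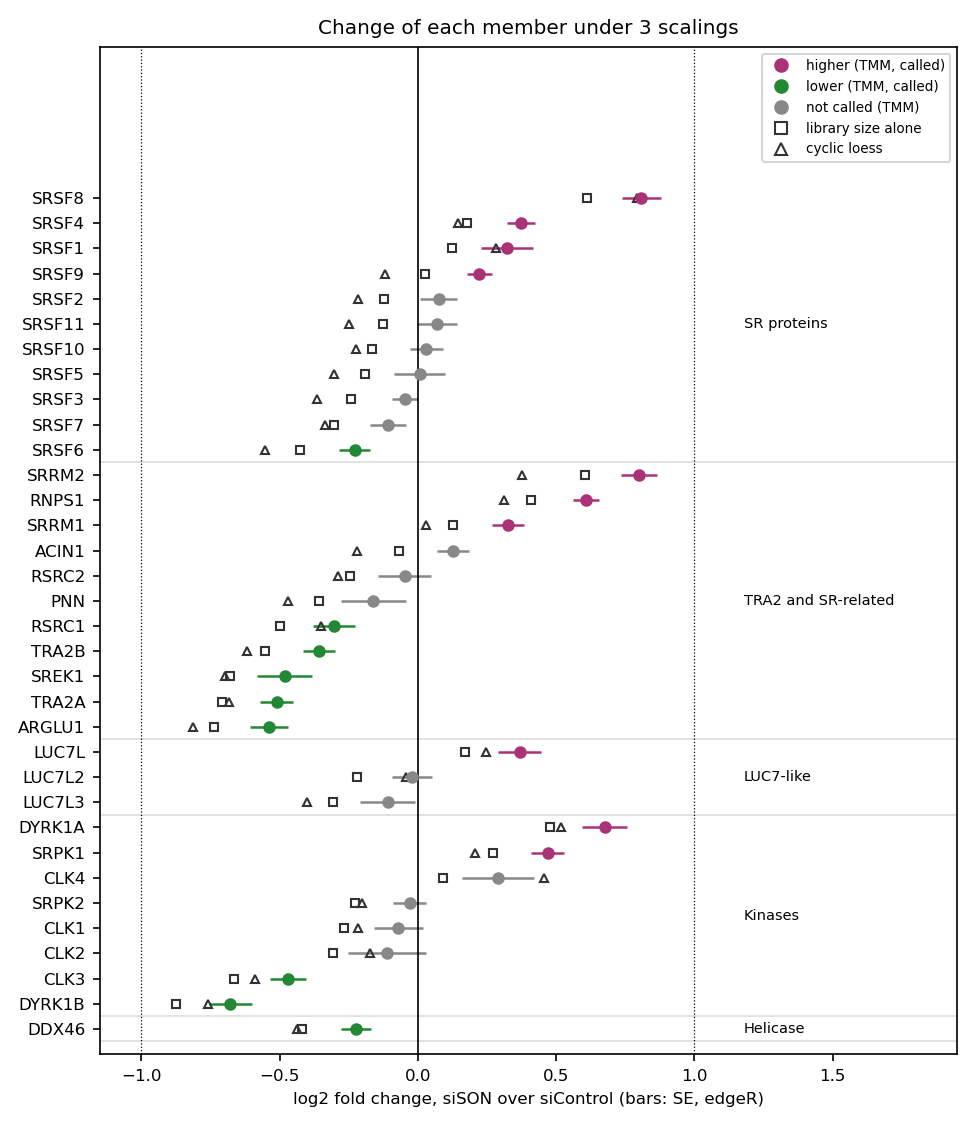
Log2 fold change of each member, siSON over siControl, by role; filled circles are the edgeR fit with TMM scaling (bars SE), open squares library size alone, open triangles cyclic loess. All circles lie between -0.68 and 0.81, and the open symbols lie to the left of the circle for all members but CLK4, whose triangle lies to the right.

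Among the SR proteins, 4 of 11 tested rose, 1 fell and 6 were not called. Of all genes tested, 35.2% were called higher and 36.5% lower. SRSF8 rose most. It is encoded by a gene with a single merged exon, close in sequence to SRSF2 (ENSG00000263465; GRCh38 chromosome 11, 95067197 to 95071224, plus strand). Its siControl libraries had 20.7, 20.6 and 20.8 CPM and its siSON libraries 38.7, 35.4 and 34.7 CPM. All siSON libraries lay above all siControl libraries, a rise of 0.81 on the log2 scale (SE 0.07, adjusted p 1.24e-06). SRSF2, a classic marker of speckles, had 170, 149 and 147 CPM in siControl and 172, 163 and 156 CPM in siSON. Its groups overlapped, and its log2 fold change of 0.076 (SE 0.07, adjusted p 0.327) turned to -0.12 with library size alone and to -0.22 with cyclic loess, where it was called lower (adjusted p 0.0151). SRSF2 shares 36.7% of its exon bases with MFSD11 on the other strand.

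SRSF4 and SRSF6, related proteins with a pair of RNA recognition motifs, went opposite ways. SRSF4 (ENSG00000116350; chromosome 1, 29147743 to 29181987, minus strand) had 79.8, 81.5 and 76.6 CPM in siControl and 101.5, 103.5 and 103 CPM in siSON. It rose by 0.37 on the log2 scale (SE 0.05, adjusted p 5.73e-05), with all siSON libraries above all siControl libraries. The rise was 0.18 with library size alone and 0.15 with cyclic loess. SRSF6 (ENSG00000124193; chromosome 20, 43457928 to 43464247, plus strand) had 232, 234 and 234 CPM in siControl and 209.9, 203 and 185 CPM in siSON. It fell by 0.23 (SE 0.06, adjusted p 0.00327), again without overlap, and siSON replicate 3 was the lowest library. SRSF5, the relative of both, had 168 to 190.4 CPM in siControl and 151 to 198 CPM in siSON (log2 fold change 0.0062, adjusted p 0.956), and its sign turned under 7 of 14 alternatives, with a lower call under cyclic loess (-0.30, adjusted p 0.0154).

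SRSF1 and SRSF9, another related pair, were both called higher. For SRSF1, which binds purine-rich enhancers, siControl had 26.9, 28.0 and 24.9 CPM and siSON had 28.6, 35.2 and 35.9 CPM. The groups were separated by a narrow margin, since siSON replicate 1 lay just above the highest siControl library. The log2 fold change of 0.32 (SE 0.09, adjusted p 0.00921) was 0.13 with library size alone, where the call was lost (adjusted p 0.271). SRSF1 shares 56.6% of its exon bases with the read-through model AC015813.2 on its own strand, to which almost no reads were assigned, and how reads in the shared bases were counted is not stated. SRSF9, which has a short RS domain, had 249, 240.4 and 245 CPM in siControl and 284, 285 and 288 CPM in siSON. It was called higher by 0.22 (SE 0.04, adjusted p 0.000907), but the change was 0.026 with library size alone (adjusted p 0.608) and -0.12 with cyclic loess (adjusted p 0.0257). It shares 46.2% of its exon bases with GATC on the other strand.

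The other SR proteins were not called. SRSF3, which couples splicing to mRNA export, had 206 to 219.7 CPM in siControl and 201 to 208 CPM in siSON (log2 fold change -0.046, adjusted p 0.412). SRSF7, the SR protein with a zinc knuckle, had 89.4 to 96.1 and 81.9 to 93.9 CPM (log2 fold change -0.11, adjusted p 0.161). With library size alone and with cyclic loess both were called lower, SRSF3 by -0.24 and -0.37 and SRSF7 by -0.30 and -0.33. SRSF10, a repressor of splicing when dephosphorylated, and SRSF11, another RS-domain protein, had log2 fold changes of 0.031 (adjusted p 0.658) and 0.069 (adjusted p 0.416), and both turned negative under those scalings. SRSF10 was then called lower under both (adjusted p 0.0327 and 0.00660) and SRSF11 under cyclic loess (adjusted p 0.0141). With TMM scaling, the summed level of the SR proteins was 1576, 1536 and 1524 CPM in siControl. In siSON it was 1647, 1638 and 1533 CPM, so the groups overlapped under that scaling. The TMM factors were 1.06 to 1.08 in siControl and 0.926 to 0.945 in siSON. Unscaled totals would therefore raise the siControl sums and lower the siSON sums, and overlap was not checked there.

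Of the 11 TRA2 and SR-related genes, 3 rose, 5 fell and 3 were not called (all genes, 35.2% higher and 36.5% lower). SRRM2, the speckle scaffold that works beside SON, had 666, 635 and 559.9 CPM in siControl and 1116, 1030.0 and 1095 CPM in siSON (ENSG00000167978; chromosome 16, 2752329 to 2772538, plus strand). Its lowest siSON library was far above its highest siControl library, a rise of 0.80 on the log2 scale (SE 0.07, adjusted p 7.43e-07). The rise was 0.60 with library size alone and 0.38 with cyclic loess. SRRM1, the other matrix protein that assists splicing, had 150.2, 142 and 139 CPM in siControl and 192, 177 and 173 CPM in siSON. It was called higher by 0.33 (adjusted p 0.000328), a call that was lost with library size alone (0.13, adjusted p 0.0538) and with cyclic loess (0.030, adjusted p 0.655).

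Members of the complexes that bind beside the exon junction complex (EJC) moved unequally. RNPS1 (ENSG00000205937; chromosome 16, 2253116 to 2268412, minus strand), shared by the ASAP and PSAP complexes, had 136, 134 and 130.3 CPM in siControl and 205, 203 and 202 CPM in siSON. The siSON libraries lay close together, all above siControl, and the change was 0.61 on the log2 scale (SE 0.05, adjusted p 4.94e-07). The RNPS1 change was 0.41 with library size alone and 0.31 with cyclic loess. ACIN1, its ASAP partner, had 259 to 265 CPM in siControl and 265 to 307 CPM in siSON (log2 fold change 0.13, adjusted p 0.0653), with groups that just failed to overlap. Without siSON replicate 3 ACIN1 was called (0.19, adjusted p 0.0143), whereas with cyclic loess it was called lower (-0.22, adjusted p 0.00612). PNN, its PSAP partner, had 220, 176 and 173 CPM in siControl and 194, 170.4 and 145 CPM in siSON. These overlapped, with a log2 difference of -0.16 (SE 0.12, adjusted p 0.241), though PNN was called lower with library size alone (-0.36, adjusted p 0.0125) and with cyclic loess (-0.47, adjusted p 0.00359).

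Both TRA2 genes, whose proteins bind GAA-rich enhancers, fell. TRA2A (ENSG00000164548; chromosome 7, 23504780 to 23532041, minus strand) had 77.4, 74.7 and 71.7 CPM in siControl and 54.3, 52.6 and 50.2 CPM in siSON, and its log2 fold change was -0.51, with SE 0.06 and adjusted p 1.37e-05. TRA2B (ENSG00000136527; chromosome 3, 185915906 to 185938136, minus strand) had 133, 137 and 128 CPM in siControl and 97.2, 108 and 106 CPM in siSON, and its log2 fold change was -0.36, with SE 0.06 and adjusted p 0.000187. In neither gene did the groups overlap.

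ARGLU1, a splicing and nuclear receptor co-factor, was the SR-related gene that fell most (ENSG00000134884; chromosome 13, 106541673 to 106568164, minus strand). It had 152, 158 and 152 CPM in siControl and 114, 109.7 and 94.5 CPM in siSON, a change of -0.54 on the log2 scale (SE 0.07, adjusted p 3.00e-05). SREK1, an RS protein linked to SRSF11 by sequence, had 94.9, 97.8 and 86.4 CPM in siControl and 76.0, 68.0 and 55.9 CPM in siSON. The siSON libraries of SREK1 differed among themselves more than those of ARGLU1 in relative terms, yet all lay below siControl (log2 fold change -0.48, SE 0.10, adjusted p 0.00123). RSRC1, an RS-rich coiled-coil protein, had 34.1, 34.6 and 37.0 CPM in siControl and 26.2, 29.9 and 29.6 CPM in siSON. It fell without overlap (log2 fold change -0.30, adjusted p 0.00347). RSRC2 had 91.8 to 111 CPM in siControl and 86.2 to 112 CPM in siSON, which overlapped (log2 fold change -0.047, adjusted p 0.677). It was called lower with library size alone (-0.24, adjusted p 0.0378) and with cyclic loess (-0.29, adjusted p 0.0235).

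**Figure D4:**
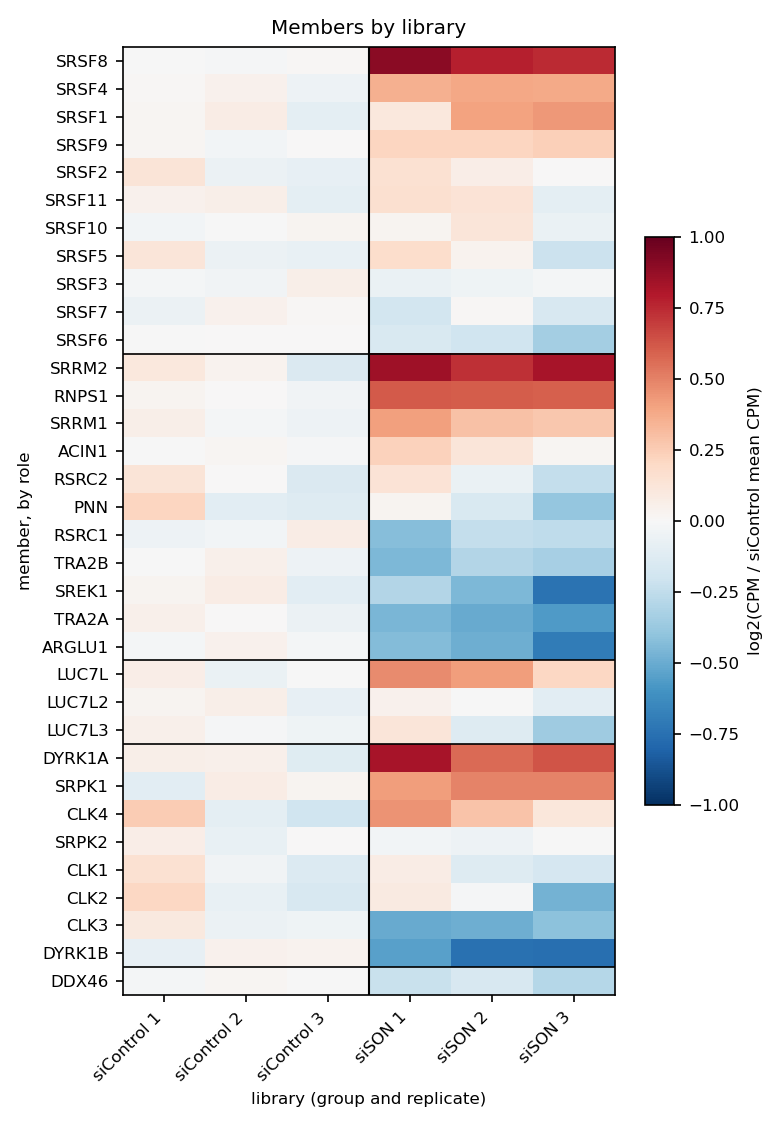
Each cell is the log2 ratio of a library's CPM to the member's siControl mean; columns are the 6 libraries and rows the 34 members by role. SRSF8, SRRM2, RNPS1 and DYRK1A are high in all 3 siSON libraries; SREK1, ARGLU1, PNN, LUC7L3 and CLK2 are lowest in siSON replicate 3.

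The LUC7-like proteins bind U1 snRNP and affect the choice of 5′ splice site. LUC7L had 41.3, 37.7 and 39.4 CPM in siControl and 54.8, 52.6 and 45.5 CPM in siSON (ENSG00000007392; chromosome 16, 188969 to 229463, minus strand). The groups did not overlap, and the log2 fold change of 0.37 (SE 0.08, adjusted p 0.00132) was 0.17 with library size alone, where the call was lost (adjusted p 0.0696). LUC7L2 had 26.9 to 29.6 CPM in siControl and 26.5 to 29.2 CPM in siSON (log2 fold change -0.022, adjusted p 0.800). With library size alone LUC7L2 was called lower (-0.22, adjusted p 0.0199), and 21.8% of its exon bases are shared with the read-through gene C7orf55-LUC7L2 on its strand. LUC7L3 had 149, 143 and 139.6 CPM in siControl and 156, 131 and 112 CPM in siSON. One siSON library was above and the others below siControl, and the log2 fold change of -0.11 (adjusted p 0.351) was -0.23 and called without siSON replicate 1 (adjusted p 0.00953) but 0.013 without siSON replicate 3. LUC7L3 was also called lower with library size alone (-0.31, adjusted p 0.0155) and with cyclic loess (-0.40, adjusted p 0.00488).

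Of the 8 kinases, 2 rose, 2 fell and 4 were not called (all genes, 35.2% higher and 36.5% lower). The DYRK1 paralogs gave the widest contrast. DYRK1A, the dosage-sensitive kinase of chromosome 21 (ENSG00000157540; 37365573 to 37526358, plus strand), had 46.5, 46.2 and 40.9 CPM in siControl and 78.7, 65.8 and 68.8 CPM in siSON. It rose by 0.68 on the log2 scale (SE 0.08, adjusted p 1.62e-05). DYRK1B (ENSG00000105204; chromosome 19, 39825350 to 39834201, minus strand) had 44.2, 48.1 and 48.0 CPM in siControl and 32.1, 27.9 and 27.7 CPM in siSON. It fell by 0.68 (SE 0.08, adjusted p 1.06e-05). For each gene the groups were apart, in opposite order.

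SRPK1, which phosphorylates SR proteins before nuclear import, had 95.5, 108 and 104 CPM in siControl and 137, 144 and 145 CPM in siSON (ENSG00000096063; chromosome 6, 35832966 to 35921342, minus strand). It rose by 0.47 (SE 0.06, adjusted p 2.59e-05), and no libraries overlapped. The rise was 0.27 with library size alone and 0.21 with cyclic loess. SRPK2 had 59.7 to 65.9 CPM in siControl and 60.7 to 62.8 CPM in siSON (log2 fold change -0.030, SE 0.06, adjusted p 0.667), though library size alone gave -0.23 (adjusted p 0.00429) and cyclic loess -0.20 (adjusted p 0.00942).

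CLK kinases phosphorylate SR proteins in the nucleus, and CLK1 and CLK4 are known for intron-retaining transcripts kept in the nucleus. CLK3 fell, with 58.1, 52.1 and 52.9 CPM in siControl and 38.3, 38.7 and 40.8 CPM in siSON (ENSG00000179335; chromosome 15, 74598500 to 74645414, plus strand). The change was -0.47 on the log2 scale (SE 0.07, adjusted p 6.13e-05), without overlap. CLK1 had 49.98 to 61.1 CPM in siControl and 48.9 to 57.7 CPM in siSON (log2 fold change -0.071, adjusted p 0.491), and was called lower with library size alone (-0.27, adjusted p 0.0162). CLK2 had 39.0, 32.2 and 30.3 CPM in siControl and 36.0, 33.6 and 24.4 CPM in siSON, which overlapped (log2 fold change -0.11, SE 0.14, adjusted p 0.503). Without siSON replicate 3 the CLK2 value was 0.050. CLK4 had 13.5, 10.6 and 9.93 CPM in siControl and 15.5, 13.9 and 12.3 CPM in siSON, and its highest siControl library lay among the siSON values. Its log2 fold change of 0.29 (SE 0.13, adjusted p 0.0649) was 0.41 without siControl replicate 1 (adjusted p 0.0104) and 0.38 without siSON replicate 3 (adjusted p 0.0286), and it was also called by DESeq2 (0.29, adjusted p 0.0440), without the filter (0.29, adjusted p 0.0143) and with cyclic loess (0.45, adjusted p 0.00976).

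DDX46, the DEAD-box ATPase that helps U2 snRNP to engage the branch site, had 88.1, 90.3 and 88.9 CPM in siControl and 76.4, 79.7 and 73.1 CPM in siSON. It fell by 0.22 (SE 0.05, adjusted p 0.00345), and all siSON libraries were below siControl. Its gene (ENSG00000145833; chromosome 5, 134758771 to 134855133, plus strand) shares 2.6% of its exon bases with C5orf24 on the same strand.

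To compare related members free of library scaling, the log2 ratio of their counts was taken within each library for 14 of 15 listed pairs; SRSF10/SRSF12 had no counts for SRSF12. In 7 pairs the siSON and siControl ratios did not overlap. How often the ratios of other gene pairs fail to overlap was not measured. For single genes, the groups did not overlap for 75.1% of all genes tested. With 3 libraries against 3, the 2-sided exact permutation test cannot go below p = 0.1, which these 7 pairs reached (adjusted p 0.2 over the 14 pairs), so none could pass 0.05. The DYRK1A/DYRK1B log2 ratio was 0.072, -0.057 and -0.23 in siControl and 1.29, 1.24 and 1.31 in siSON, a difference of 1.35, or a 2.56-fold change of the ratio. The counts of the pair, not corrected for length, were near equal in siControl and apart in every siSON library. Per kilobase of merged exon, DYRK1A and DYRK1B were at 1.67 and 14.7 CPM per kb in siControl. In siSON they were at 2.67 and 9.16 CPM per kb, so only the shift of the ratio is free of length.

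The SRSF2/SRSF8 log2 ratio was 2.90 ± 0.119 in siControl and 2.17 ± 0.025 in siSON (SD, n = 3 each), a difference of -0.73. SRSF4/SRSF6 was -1.56 ± 0.0488 and -0.95 ± 0.104, a difference of 0.60. SRPK1/SRPK2 was 0.70 ± 0.160 and 1.202 ± 0.0494, a difference of 0.50. SRRM1/SRRM2 (-0.48), LUC7L/LUC7L2 (0.39) and CLK1/CLK4 (-0.36) completed the 7, each given as siSON minus siControl. Overlapping ratios were found for SRSF1/SRSF9, SRSF3/SRSF7, SRSF5/SRSF6, TRA2A/TRA2B, RSRC1/RSRC2, LUC7L2/LUC7L3 and CLK2/CLK3, with differences of -0.25 to 0.34. For CLK2/CLK3, siSON replicate 3 (-0.74) lay among the siControl values of -0.57 to -0.80 and the other siSON libraries above them (-0.090 and -0.21).

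**Figure D5:**
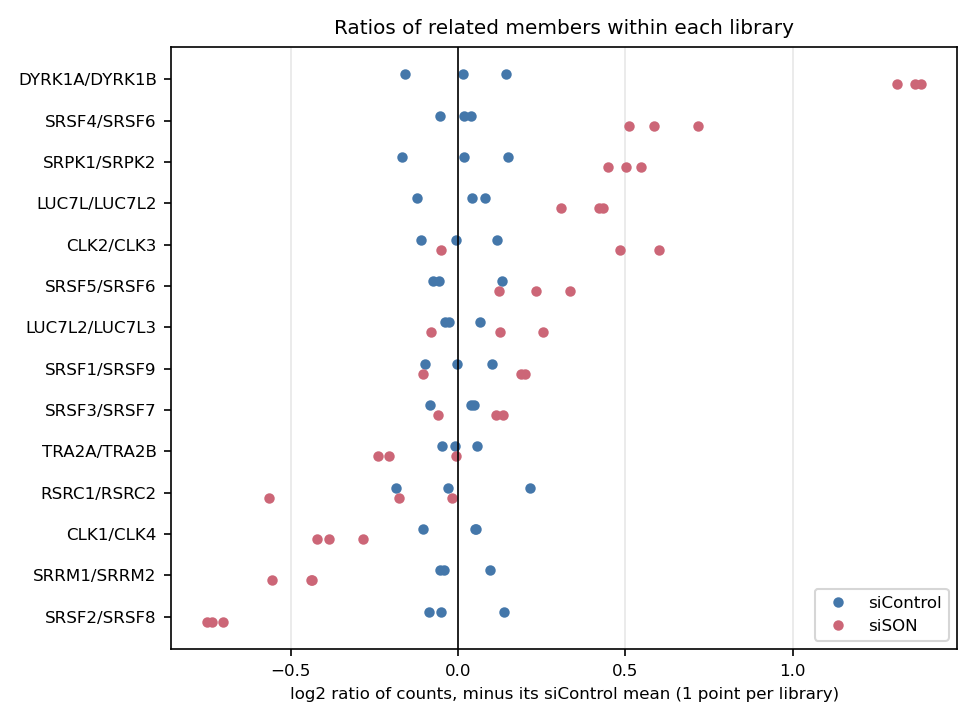
Log2 ratio of the counts of related members in each library, minus the pair's siControl mean; 1 point per library, 3 per group. The siSON points of DYRK1A/DYRK1B sit near 1.35, and those of SRSF2/SRSF8 near -0.73, apart from all siControl points.

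Other genes of the same machinery were taken from 3 lists of general knowledge that share no gene with the members. Of 46 further RS-domain and speckle genes, 44 were tested and 28 called (63.6%, beside 71.7% of all genes), 23 higher and 5 lower (35.2% and 36.5% of all genes), with a median log2 fold change of 0.22 (all genes, -0.027). The split was 18 and 14 with library size alone (26.8% and 44.3% of all genes) and 17 and 13 with cyclic loess (36.4% and 34%). The strongest rises by p-value were SF3B1, the U2 snRNP subunit that grips the branch site (314 ± 5.90 to 611 ± 32.1 CPM), CWC22, which loads the exon junction complex (22.4 ± 1.03 to 53.9 ± 4.57 CPM), and SRRT, which links the cap to RNA processing (170 ± 5.34 to 285 ± 6.76 CPM; SD, n = 3 each). DDX23 (154 ± 6.21 to 93.2 ± 3.44 CPM), CCNL2 (125 ± 10.6 to 69.5 ± 5.40 CPM) and RSRP1 (52.6 ± 4.72 to 30.3 ± 4.21 CPM) fell. Of the 44, 1 changed at least 2-fold, namely CWC22, beside 29.3% of all genes.

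Of 29 further kinases, phosphatases and transport receptors, 23 were called (79.3%, beside 71.7% of all genes), 18 higher and 5 lower (35.2% and 36.5% of all genes). The split was 15 and 7 with library size alone (26.8% and 44.3% of all genes) and 18 and 8 with cyclic loess (36.4% and 34%). Of the 29, 6 changed at least 2-fold (20.7%, beside 29.3%). The import receptors of the transportin family differed. TNPO1 rose from 169 ± 2.36 to 484 ± 19.1 CPM (log2 fold change 1.52, SE 0.05, adjusted p 1.65e-09). TNPO2 fell from 129 ± 5.43 to 19.5 ± 2.73 CPM (log2 fold change -2.73, SE 0.09, adjusted p 2.27e-09). TNPO3, which imports phosphorylated SR proteins and was chosen after its values were seen, rose from 71.0 to 102 CPM (log2 fold change 0.52). The kinases DYRK2 (44.2 to 103 CPM) and HIPK3 (38.2 to 75.8 CPM) rose, and the phosphatase PPM1G (187 to 96.6 CPM) and CDK11B (40.4 to 17.1 CPM) fell. CDK11B has a near-identical copy, CDK11A, so its count is uncertain. SRPK3, the third SRPK gene and also chosen after its values were seen, was called lower at a very low level, with 0.258, 0.362 and 0.161 CPM in siControl and 0.0172, 0 and 0 CPM in siSON.

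Of 19 genes of the exon junction complex, export and NMD, 15 were called (78.9%, beside 71.7% of all genes), 14 higher and 1 lower (35.2% and 36.5% of all genes). The split was 11 and 3 both with library size alone (26.8% and 44.3% of all genes) and with cyclic loess (36.4% and 34%). The median log2 fold change was 0.54 (all genes, -0.027). SMG5 (98.3 ± 4.13 to 261 ± 14.5 CPM) and UPF2 (38.1 ± 2.56 to 93.2 ± 1.949 CPM; SD, n = 3 each), both factors of NMD, were among those that rose. UPF3A was called lower (63.8 ± 3.06 to 56.6 ± 1.13 CPM, adjusted p 0.0215), a call that was lost without siSON replicate 2 (adjusted p 0.0517) or replicate 3 (adjusted p 0.0865). In each of these lists most called genes were higher under each of the 3 scalings. The members were split 10 higher to 9 lower in the main fit, 6 to 18 with library size alone and 9 to 21 with cyclic loess. The lists were chosen with earlier results of these data known, and no test compared the lists with each other.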

How the data were processed

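The authors deposited raw whole-number read counts per gene, 1 column per library, with no normalization or pooling. The submitters' processing notes name hg38, cutadapt 1.16, STAR 2.5.2a, featureCounts 1.6.2 and DESeq2 1.28.1; the annotation release, strand setting and treatment of multi-mapping reads are not given in the sources used here, so genes with overlaps or copies are uncertain (9 pseudogenes are named after 8 members). All 58735 identifiers matched GENCODE 29 (GRCh38), which gave positions, exons and transcript classes. The fit to the counts used edgeR 4.0.16 under R 4.3.3 over the whole table. It used filterByExpr with a minimum count of 10, TMM and a robust quasi-likelihood fit on group. Benjamini-Hochberg adjustment was over all genes tested, with a threshold of 0.05. The fit was also run on simulated counts in which few genes changed, equally up and down. Most genes were called in the real data, so the simulation does not test the scaling there. SE is the absolute log2 fold change over the square root of F. CPM uses TMM-scaled totals, except for the limit of 3 counts, which uses unscaled totals. Alternatives used DESeq2 1.42.0 and limma 3.58.1. Paralog ratios used a pseudocount of 0.5 counts. The members, lists and tests were chosen with earlier results of these data known. All members were named, with SON and from each list the 3 genes that rose and the 3 that fell with the lowest adjusted p. One gene that this rule names is not reported here. Library totals were 54572365 to 69764836 counts.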

Additional observations from a re-analysis of the deposited data

How the results depend on the processing

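The count of 19 members called changed was 19 to 21 when each library was left out in turn and 30 with cyclic loess; requiring at least a 2-fold change left 0 members (0 higher, 0 lower) and 4853 of all 11888 genes called. Higher members numbered 6 with library size alone, and lower members 18 with library size alone and 21 with cyclic loess. Library size alone turned SRSF2 to -0.12, SRSF5 to -0.19, SRSF10 to -0.17, SRSF11 to -0.13 and ACIN1 to -0.069 (log2 fold changes here and below). Cyclic loess turned SRSF2 to -0.22, SRSF5 to -0.30, SRSF9 to -0.12, SRSF10 to -0.23, SRSF11 to -0.25 and ACIN1 to -0.22. With a mean count of at least 50, SRSF5 was -0.050 and SRSF10 -0.026. Leaving out 1 library gave SRSF5 -0.040 (siControl replicate 2), -0.036 (siControl replicate 3) and -0.074 (siSON replicate 1), within a range of -0.074 to 0.12, and SRSF10 -0.0072 (siControl replicate 1) and -0.0065 (siSON replicate 2), within -0.0072 to 0.087. Without siSON replicate 3, RSRC2 was 0.051 (range -0.13 to 0.051), LUC7L2 0.029 (-0.070 to 0.029), LUC7L3 0.013 (-0.23 to 0.013) and CLK2 0.050 (-0.21 to 0.050). The cause of these changes was not tested, beyond the scaling itself. Same-numbered libraries of the groups correlated by 0.194, 0.0461 and 0.118 in their deviations from the group means. Differently numbered ones were all lower, at -0.138 to 0.0286, so same-numbered libraries may be linked. No label states a pairing, so the main fit left the numbers out, and a fit with replicate number as a block was an alternative. With the replicate block 22 members were called, 12 higher and 10 lower, CLK4, ACIN1 and PNN being added, and SRSF5 was -8.3e-05. Of the 15 members not called, none kept that status and sign under all 14 alternatives. In the main fit all 15 had log2 fold changes of at most 0.29 in size, but with cyclic loess PNN was -0.47 and CLK4 0.45.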

Other observations

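In siSON, replicate 1 was the highest library for 22 of the 34 members (64.7%) and replicate 3 the lowest for 22 (64.7%), beside 38.8% and 29.8% of all genes tested. In siControl, replicate 1 was highest for 17 and replicate 3 lowest for 21 (61.8%), beside 37.8% and 32.0% of all genes. Leaving out siSON replicate 3 moved the median log2 fold change of the members from -0.026 to 0.050. What distinguishes the replicate numbers is not given in the labels.

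The summed level of all 35 genes was 4341, 4203 and 4047 CPM in siControl and 4912, 4695 and 4523 CPM in siSON. SRRM2 alone went from 620.2 ± 54.5 to 1080.5 ± 44.9 CPM (SD, n = 3 each). The LUC7-like genes summed to 212 ± 6.79 and 212 ± 28.0 CPM. All these values use TMM-scaled totals. Unscaled totals would raise them in siControl and lower them in siSON, so the direction of the sums depends on scaling and was not tested.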
